A study of Mus musculus with 4 samples.

Results

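Signalling by transforming growth factor β (TGF-β) and bone morphogenetic proteins (BMPs) was examined in medullary thymic epithelial cells (mTECs) through 42 genes chosen by symbol, all of which were listed among the 23337 genes of the deposited count table. The members comprise 13 ligand genes, a protease and a latency protein, 4 antagonists, 10 receptors or co-receptors, 8 SMADs, 2 ubiquitin ligases and 3 target genes of the ID family. mTECs line the thymic medulla and display self-antigens to developing T cells. The study sorted them as CD45-EpCAM+UEA-1+Ly51- cells from C57BL/6 mice aged 4 weeks and made 4 RNA-seq libraries, 2 labelled WT and 2 labelled *Sirt6*-/-. Per the study's methods, the latter mice carry *Sirt6* alleles flanked by loxP sites and a Cre driven by *Foxn1*, a gene of thymic epithelium, so that *Sirt6* is deleted in thymic epithelial cells rather than in the whole animal. Controls lacked the Cre and were littermates or age-matched mice. The methods call the 2 samples of a group independent, but how many animals each sample holds is not given in the sources used here. The comparison asks how loss of the deacetylase *Sirt6* changes gene expression in mTECs.

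Ligands of this family are dimers that bind a pair of type I and type II receptor kinases at the cell surface. The activated type I receptor phosphorylates receptor-regulated SMADs, which join SMAD4 and enter the nucleus. TGF-β and activin act mainly through SMAD2 and SMAD3, and BMPs through SMAD1, SMAD5 and SMAD9, with the *Id* genes as classic BMP targets. Antagonists such as noggin, gremlin and chordin hold BMPs away from their receptors, SMAD6 and SMAD7 brake the pathway inside the cell, and latent TGF-β must be released from its binding proteins before it can act. In the thymus, BMP4 from mesenchyme is known to sustain *Foxn1* in epithelial cells, and TGF-β receptors on epithelium are known to restrain the medulla.

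Library totals lay between 61102704 and 65907745 counts. *Sirt6* itself had 622 and 755 counts in WT against 882 and 835 counts under the *Sirt6*-/- label. Its log2 fold change was 0.37 with a standard error of 0.32, and edgeR's quasi-likelihood test gave an adjusted p = 0.80. The targeted gene was therefore not lower where the label says it was deleted, so these counts do not check the labels. The study reports that *Sirt6* was inactivated, by western blot of cultured thymic epithelial cells and by quantitative PCR of sorted mTECs. Those assays were not analysed here. Which exons are deleted is not given in the sources used here, and a count over the whole gene includes any exons that remain. Levels are given in TPM, the level per transcript length that StringTie gives. Means of 10 mTEC markers ran from 10.65 TPM for *Tnfrsf11a* and 25.5 TPM for *Cldn3* up to 15520 TPM for *H2-Aa*. *Epcam*, *Aire* and *Fezf2* stood at 973, 569 and 607 TPM. The libraries also held RNA of genes that mark cells the sort should remove. Whether it came from such cells or from the mTECs was not tested. The sum of 9 macrophage and dendritic cell markers was 6152 to 9809 TPM in WT and 3838 to 4120 TPM under the *Sirt6*-/- label. Nearly all of it was *Lyz2*, and the other 8 markers summed to 211 to 277 TPM in WT and 165 to 174.5 TPM in the others. Values of such markers are given beside the results they move with. In bulk RNA, fewer cells of a type and less RNA per cell cannot be told apart.

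Counts were scaled by edgeR's TMM method to CPM, a count relative to the size of its library, which serve to compare libraries, and TPM serves to compare genes. Of the 42 members, 41 passed the filter on low counts. In the fit over all 18547 genes tested, 0 members passed an adjusted p of 0.05 with edgeR, where 1 gene in all did (0.00539% of those tested). At an unadjusted p of 0.05, 3 of 41 members (7.32%) differed, and so did 8.58% of all genes. Of all genes called, 61.4% were higher, a share that was 48.4% under upper quartile scaling and 46.2% when library size alone was used. *Bmp2* and *Smad3* were higher in the libraries labelled *Sirt6*-/- (2 members, against 5.27% of all genes in that direction) and *Grem1* was lower (1 member, against 3.32%). The share of members called was thus near that of all genes. DESeq2 gave 5 of the tested members an unadjusted p under 0.05, against 10.2% of its genes, and 1, *Bmp2*, an adjusted p under 0.05, against 1.69% of its genes. The median log2 fold change of the members was -0.10, and that of all genes was -0.0047. The members ranged from -3.75 for *Chrd* to 1.91 for *Tgfb1*, both of which lay under 5 TPM in every library. The groups did not overlap in CPM for 24 of the 41 members (58.5%), where 41.9% of all genes showed no overlap. Of these members 10 were higher (21.6% of all genes were) and 14 lower (20.3% of all genes were). In TPM the groups did not overlap for 22 of the 42 members, and the share of all genes without overlap in TPM was not counted. The median size of the log2 fold change was 0.53 over the members, and the median log2 difference between replicates of a group was 0.41 over 79 pairs. Over all genes these medians were 0.40 and 0.41. In 10 members the WT replicates were over 2-fold apart, and in 11 members those labelled *Sirt6*-/- were, with a count of 0 taken as 3.

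**Figure D1:**
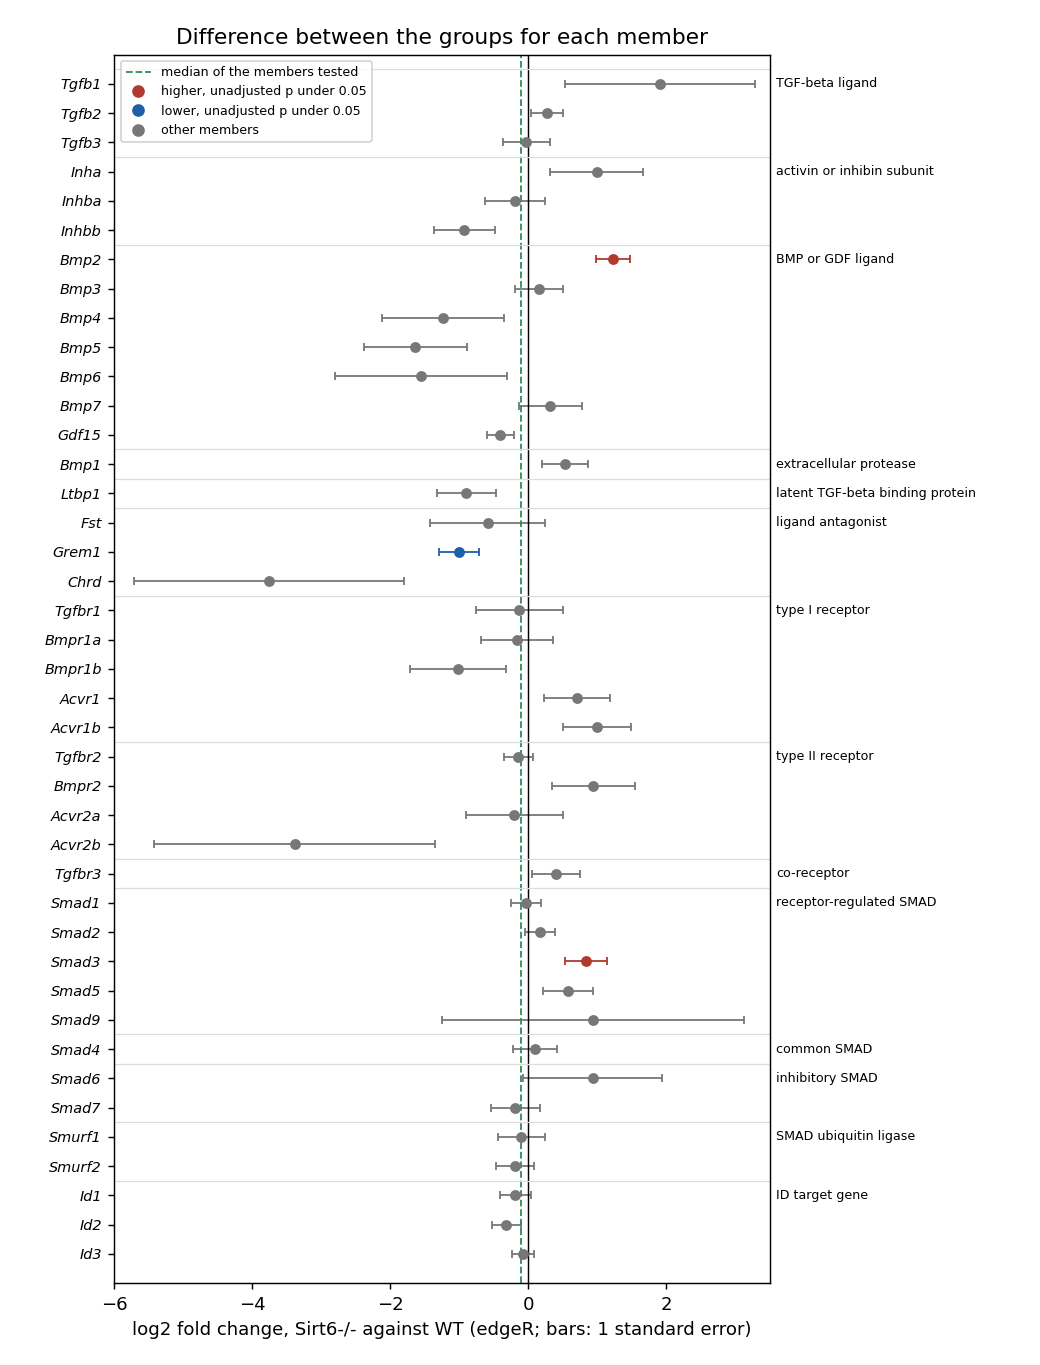
Log2 fold change of each tested member (x axis, libraries labelled *Sirt6*-/- against WT, points with bars of 1 standard error from edgeR), grouped by role. *Bmp2* at 1.23 and *Smad3* at 0.83 are marked as higher and *Grem1* at -1.001 as lower at an unadjusted p of 0.05, while the widest bars belong to members with few counts such as *Chrd*, *Acvr2b* and *Smad9*.

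Of the 3 members called, *Grem1* and *Smad3* matched an entry in RefSeq's promoter table for GRCm38.p6, the assembly of mm10, as did 30 of the 42 members in all. The bases just before the start sites of *Grem1* and *Smad3* are printed below. *Bmp2* itself lies on chromosome 2 from 133552159 to 133562885 on the plus strand in GENCODE M21. Capitals mark the letters CAGAC, a core of SMAD3 and SMAD4 binding sites, or GGCGCC, a core of BMP response elements, each searched on both strands (GTCTG being the first read on the other strand). The *Grem1* stretch covers chr2:113758649-113758898 and the *Smad3* stretch chr9:63757995-63758244, each of 250 bases upstream of a gene on the minus strand and given 5′ to 3′ along the gene:
*Grem1*: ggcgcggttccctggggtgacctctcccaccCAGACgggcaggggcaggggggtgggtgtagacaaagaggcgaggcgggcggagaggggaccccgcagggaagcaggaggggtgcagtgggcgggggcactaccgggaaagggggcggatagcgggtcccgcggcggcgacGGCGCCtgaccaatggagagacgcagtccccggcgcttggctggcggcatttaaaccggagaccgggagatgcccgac
*Smad3*: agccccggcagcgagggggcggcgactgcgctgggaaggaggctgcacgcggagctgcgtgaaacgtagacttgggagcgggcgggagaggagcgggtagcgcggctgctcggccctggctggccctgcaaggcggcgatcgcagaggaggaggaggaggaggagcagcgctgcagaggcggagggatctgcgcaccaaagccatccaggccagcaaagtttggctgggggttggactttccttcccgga
The *Grem1* stretch held CAGAC once, at -219 from the start, and GGCGCC once, at -78. The *Smad3* stretch held neither in this window. Over the 250 bases before the start, CAGAC on either strand was found for 14 of 30 members (46.7%) and 42.1% of 27025 promoters. GGCGCC was found for 8 of 30 members (26.7%) and 9.54% of promoters. The median GC content was 67.4% in the members' stretches and 52.0% in all, which bears on a motif made of G and C alone. A match of letters is a description of the sequence, not a binding site.

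Levels in the members spanned more than the differences between groups did. The target genes *Id3*, *Id2* and *Id1* ranked 1, 2 and 4 among the 42 members in WT, with *Gdf15* at 3 and *Smad1* at 5, and the same 5 genes held the same ranks in the libraries labelled *Sirt6*-/-. These 5 members had means over 100 TPM, 14 lay from 10 to 100 TPM, 18 from 1 to 10 TPM and 5 under 1 TPM. *Bmp2* ranked 10 in WT and 6 in the libraries labelled *Sirt6*-/-, whereas *Grem1* ranked 8 and 12.

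**Figure D2:**
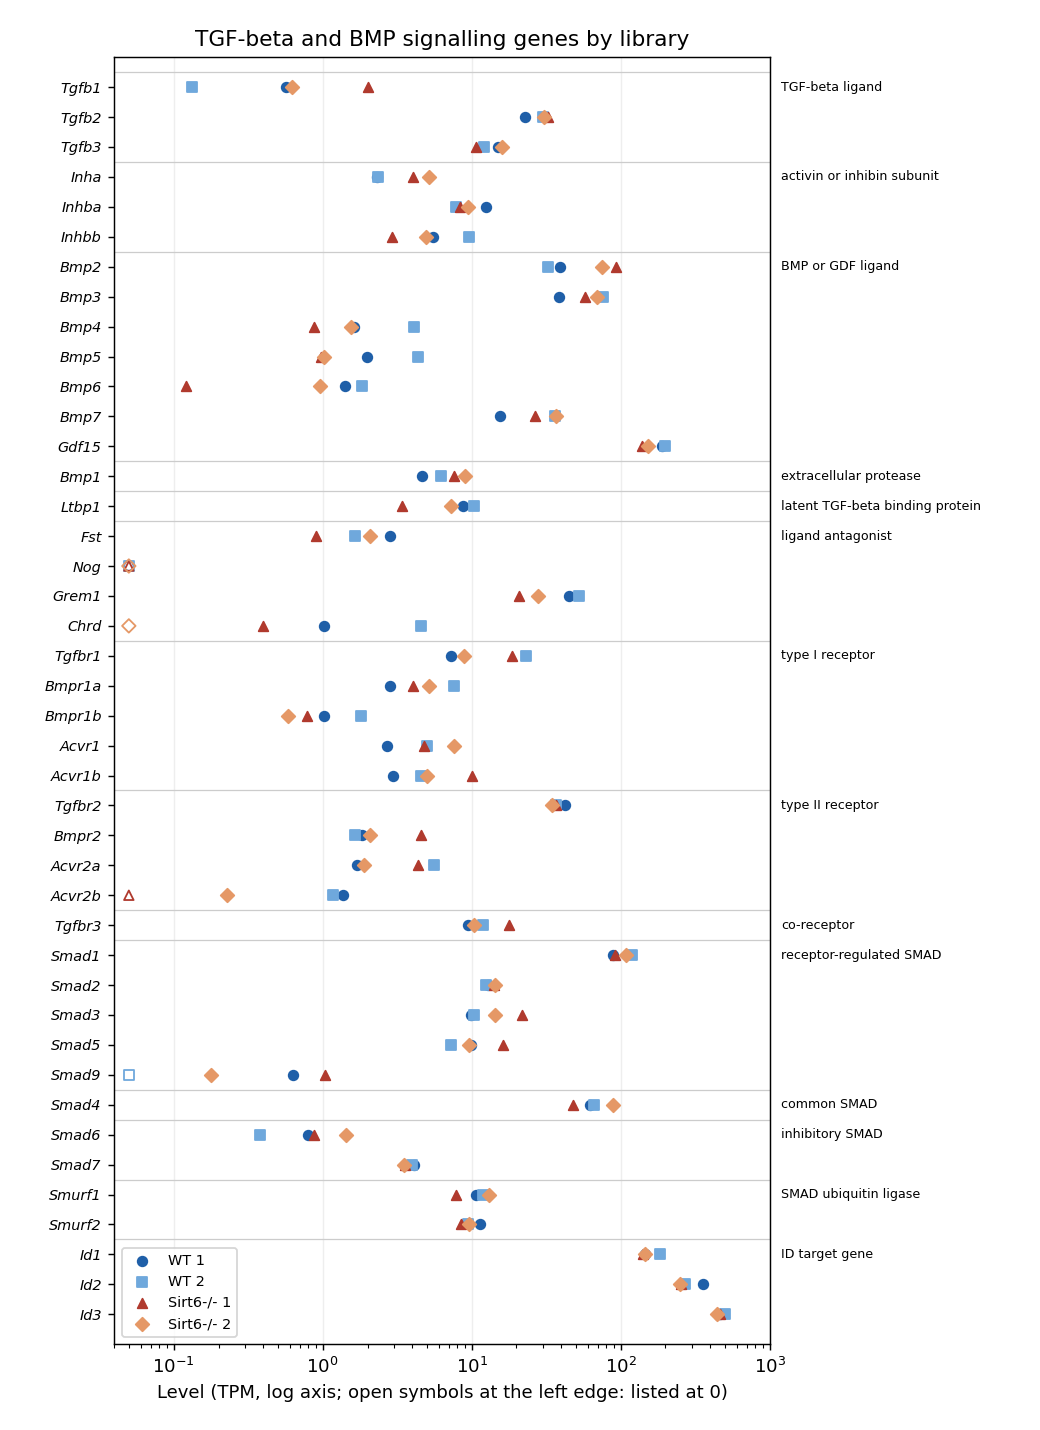
Level of each member in each library (x axis, TPM on a log axis, circles and squares for WT 1 and 2, triangles and diamonds for *Sirt6*-/- 1 and 2, open symbols for values listed at 0). The *Id* genes, *Gdf15* and *Smad1* sit at the right, *Nog* is listed at 0 in every library, and the symbols of the groups lie apart for *Bmp2* and *Grem1*.

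Among the TGF-β ligands, *Tgfb2* was the most abundant. *Tgfb1*, the form known from immune cells, was the lowest, at 0.13 to 2.0 TPM. *Tgfb2* had 3251 and 4034 counts in WT against 4280 and 4224 counts under the *Sirt6*-/- label, or 49.7 and 63.4 CPM against 70.9 and 65.8 CPM. The groups did not overlap, but the log2 fold change of 0.27 (standard error 0.23) did not pass the test, and it was 0.08 without WT 1. *Tgfb3* stood at 13.6 ± 2.13 TPM (SD, n = 2) in WT and 13.3 ± 3.73 TPM (SD, n = 2) in the libraries labelled *Sirt6*-/-. *Tgfb1* had 36 and 8 counts in WT against 117 and 39 counts under the *Sirt6*-/- label, so its log2 fold change of 1.91 had a standard error of 1.38. *Bmp1*, a metalloprotease that cleaves procollagen and chordin despite its name, stood at 9.48 and 12.3 CPM in WT against 13.96 and 17.5 CPM under the *Sirt6*-/- label (log2 fold change 0.53, standard error 0.33). *Ltbp1*, which tethers latent TGF-β to the matrix, had 2077 and 1997 counts in WT against 638 and 1497 counts under the *Sirt6*-/- label. The groups did not overlap, yet the libraries labelled *Sirt6*-/- were 2.21-fold apart. The log2 fold change of -0.90 (standard error 0.43) lay at -0.43 without *Sirt6*-/- 1 and -1.59 without *Sirt6*-/- 2. With all libraries, edgeR's quasi-likelihood test gave an unadjusted p = 0.0885. DESeq2 gave an unadjusted p = 0.0496 and an adjusted p = 0.452.

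The subunits of activin and inhibin were low, and none passed the test with all libraries. *Inhba*, the β subunit of activin A, stood at 10.2 ± 3.33 TPM (SD, n = 2) in WT and 8.90 ± 0.835 TPM (SD, n = 2) in the libraries labelled *Sirt6*-/-. Its log2 fold change of -0.19 (standard error 0.44) turned to 0.19 without WT 1. *Inhbb*, the subunit of activin B, had 709 and 1157 counts in WT against 344 and 615 counts under the *Sirt6*-/- label (log2 fold change -0.92, standard error 0.45). *Inha*, whose product turns activin into inhibin, had 103 and 98 counts against 164 and 223 counts (log2 fold change 0.99, standard error 0.68). In both genes the groups did not overlap.

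Among the BMP ligands, *Bmp2* was higher in the libraries labelled *Sirt6*-/-, while *Bmp4*, *Bmp5* and *Bmp6* had lower values at a few TPM or less, and *Bmp3* and *Bmp7* overlapped between the groups. The *Bmp2* counts were 2997 for WT 1, 2351 for WT 2, 6490 for *Sirt6*-/- 1 and 5551 for *Sirt6*-/- 2. Both libraries labelled *Sirt6*-/- lay above both WT libraries, and replicates were within 1.24-fold of each other in each group. Mean levels were 41.4 ± 6.25 CPM (SD, n = 2) in WT against 97.0 ± 14.8 CPM (SD, n = 2) under the *Sirt6*-/- label, a 2.35-fold difference. The log2 fold change was 1.23 (standard error 0.24). By edgeR's quasi-likelihood test its unadjusted p = 0.00314 and its adjusted p = 0.541. DESeq2 gave an adjusted p = 0.00254. *Bmp2* passed the unadjusted threshold in each of the 12 alternatives, each library left out in turn included, with log2 fold changes from 1.07 to 1.37, and its adjusted p ran from 0.00254 with DESeq2 up to 1.

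*Bmp4*, the mesenchymal ligand named above, had 98 and 235 counts in WT against 48 and 90 counts under the *Sirt6*-/- label (log2 fold change -1.24, standard error 0.89). *Bmp5* had 152 and 313 counts against 69 and 76 counts (log2 fold change -1.64, standard error 0.75), and 1878 bases of its exons overlap those of the annotated gene *Gm26903* on the other strand. Shorter overlaps with a gene on the other strand hold for *Tgfb2*, *Tgfb3*, *Bmp4*, *Bmp6*, *Fst*, *Chrd*, *Bmpr1a* and *Acvr2a*, and with one on the same strand for *Tgfbr3*, *Smad5* and *Smurf2*. Their counts could hold reads of that gene. *Bmp6* had 103 and 126 counts against 9 and 68 counts (log2 fold change -1.55, standard error 1.25). All 3 lay lower in both libraries labelled *Sirt6*-/- than in either WT library, and none of them passed an unadjusted p of 0.05 with edgeR or DESeq2. *Bmp5* did so under edgeR with genes over 0.1 TPM only and without WT 1. *Bmp3*, an atypical BMP that opposes other BMPs in bone, stood at 38.8 and 76.4 TPM in WT against 57.9 and 69.7 TPM under the *Sirt6*-/- label. *Bmp7* stood at 25.8 ± 14.6 TPM (SD, n = 2) in WT against 31.8 ± 7.34 TPM (SD, n = 2) under the *Sirt6*-/- label. In both genes the low value was that of WT 1.

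Of the summed TPM of *Bmp2* to *Bmp7*, *Bmp2* held 39.9% in WT 1, 21.1% in WT 2, 51.8% in *Sirt6*-/- 1 and 40.6% in *Sirt6*-/- 2. The groups did not overlap in this share, but WT 1 and *Sirt6*-/- 2 were less than 1 percentage point apart. *Bmp3* held 39.3% and 49.1% in WT against 32.2% and 37.5% under the *Sirt6*-/- label. The shares of *Bmp4*, *Bmp5* and *Bmp6* were each under 3% in every library.

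**Figure D3:**
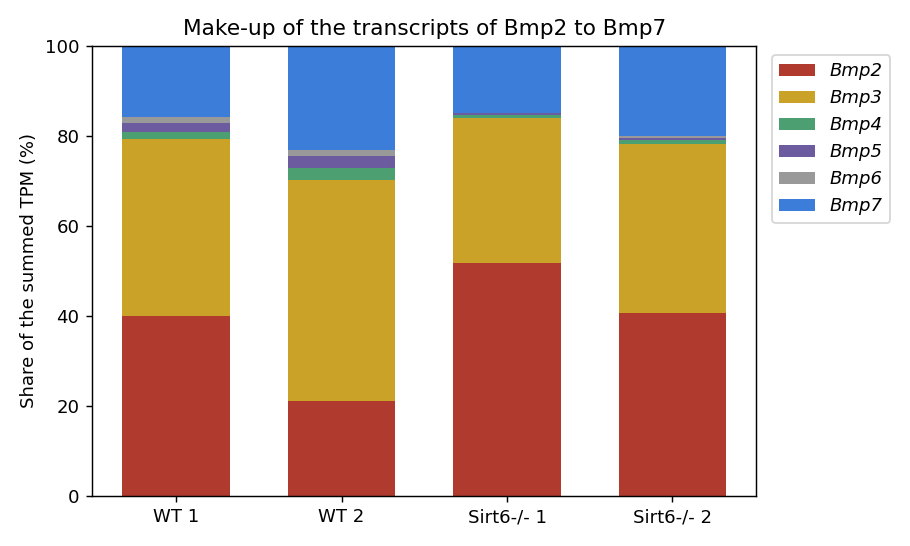
Share of each gene in the summed TPM of *Bmp2* to *Bmp7* (y axis, percent) in each library (x axis). *Bmp2* is the bottom segment, at 39.9% and 21.1% in WT against 51.8% and 40.6% under the *Sirt6*-/- label.

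*Gdf15*, a distant member of the family induced by cell stress, was the most abundant ligand gene. It had 6243 and 6110 counts in WT against 4205 and 4809 counts under the *Sirt6*-/- label, or 95.7 ± 0.448 CPM (SD, n = 2) against 72.3 ± 3.75 CPM (SD, n = 2). The groups did not overlap and replicates lay close together. The log2 fold change of -0.40 (standard error 0.19) had, by edgeR's quasi-likelihood test, an unadjusted p = 0.0865 and an adjusted p = 0.639. It passed the unadjusted threshold with library size alone and with limma on TPM. Over all 7 ligands of this group the summed level was 321 ± 45.0 TPM (SD, n = 2) in WT and 328 ± 12.5 TPM (SD, n = 2) in the libraries labelled *Sirt6*-/-, with WT 1 lowest and WT 2 highest.

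Among the antagonists, *Grem1* was the main transcript and was lower in the libraries labelled *Sirt6*-/-. *Grem1* encodes gremlin 1, a secreted protein that binds BMP2, BMP4 and BMP7. It lies on chromosome 2 from 113746164 to 113758646 on the minus strand, with the promoter stretch printed above. It had 2227 and 2462 counts in WT against 943 and 1328 counts under the *Sirt6*-/- label. Both of the latter lay below both WT libraries, with means of 36.3 ± 3.30 CPM (SD, n = 2) in WT against 18.2 ± 3.59 CPM (SD, n = 2) under the *Sirt6*-/- label, a ratio of 0.4997. The log2 fold change was -1.001 (standard error 0.29). By edgeR's quasi-likelihood test its unadjusted p = 0.0154 and its adjusted p = 0.541. DESeq2 gave an adjusted p = 0.0905. The unadjusted threshold was passed in 10 of 12 alternatives, and not without WT 2 (-0.90) or without *Sirt6*-/- 1 (-0.81).

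*Chrd*, which encodes chordin, had 102 and 429 counts in WT, 37 in *Sirt6*-/- 1 and 0 in *Sirt6*-/- 2. Its log2 fold change of -3.75 (standard error 1.96) did not pass edgeR's test with all libraries. *Chrd* had an unadjusted p = 0.0263 with DESeq2 and passed the unadjusted threshold with both limma fits. Its exons share 239 bases with *Thpo* on the other strand. *Fst*, which encodes the activin antagonist follistatin, had 200 and 111 counts in WT against 59 and 142 counts under the *Sirt6*-/- label, so the groups overlapped. *Nog*, which encodes noggin, had 0 counts in all 4 libraries, which allows up to 3 counts or 0.0458 to 0.0497 CPM in a library, for counting error only. The summed level of the 4 antagonists was 48.8 and 58.9 TPM in WT against 22.1 and 29.8 TPM under the *Sirt6*-/- label, most of it from *Grem1*.

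In a comparison chosen after the values were seen, *Bmp2* and *Grem1* changed places in TPM. The ratio of *Bmp2* to *Grem1* was 0.877 in WT 1, 0.622 in WT 2, 4.49 in *Sirt6*-/- 1 and 2.72 in *Sirt6*-/- 2. The antagonist was thus the higher transcript in both WT libraries and the ligand the higher in both others. No test is given of a ratio chosen for its difference.

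Markers of several cell types also differed between the groups. Of 7 tuft cell markers, 5 lay lower in both libraries labelled *Sirt6*-/-, 4 of them at an unadjusted p of 0.05, and 1 lay higher. Their summed level was 514 to 599 TPM in WT and 251 to 257 TPM in the others. Of the 9 macrophage and dendritic cell markers, 5 lay lower without overlap and 3 at an unadjusted p of 0.05, with the sums given above. Of 8 fibroblast markers, 2 lay higher and 1 lower without overlap, and their sum was 619 to 701 TPM in WT and 558 to 648 TPM in the others. The lower one was *Lum*, at -1.14 on the log2 scale (standard error 0.29). Of 10 mTEC markers, 5 lay higher and 1 lower without overlap. Those higher at an unadjusted p of 0.05 were *Cd80*, a marker of mature mTECs at 69.5 CPM in WT and 133.5 CPM in the others (log2 fold change 0.94, adjusted p = 0.011 with DESeq2), *Aire* and *Epcam*. Among the lower markers, DESeq2 gave adjusted p-values of 3.09e-07 for *Gnb3*, 1.66e-05 for *Gnat3* and 0.000543 for *Avil*, all of tuft cells. It gave 0.0282 for *Cd68* and 0.0304 for *Lyz2*, of the macrophage and dendritic cell list, and 0.0351 for *Lum*. Of 6 markers of cortical thymic epithelium, 2 lay higher and 1 lower without overlap, and *Ly75* (1.14 on the log2 scale) and *Dll4* (1.08) were higher at an unadjusted p of 0.05. Their summed level overlapped, at 354 to 410.5 TPM in WT and 270.1 to 458 TPM in the others. Of 8 thymocyte markers 2 lay lower, of 5 B cell markers 1 lay lower and of 6 endothelial markers 2 lay higher without overlap, and none of these passed an unadjusted p of 0.05. In these lists no marker was at 3 counts or fewer in every library. Their part in the values of *Bmp2*, *Smad3*, *Grem1*, *Gdf15*, *Ltbp1* and the other members was not tested.

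The receptors gave no member at an unadjusted p of 0.05 among 10 in edgeR with all libraries, and several of them varied more between replicates than between groups. *Tgfbr2*, the type II receptor of TGF-β, was the most abundant, with 6033 and 4947 counts in WT against 4808 and 4762 counts under the *Sirt6*-/- label. Its log2 fold change was -0.14 (standard error 0.21), and the groups overlapped. Its partner *Tgfbr1*, the type I receptor, had 1240 and 3745 counts in WT against 2916 and 1471 counts under the *Sirt6*-/- label. The WT libraries were 3.11-fold apart, so the log2 fold change of -0.13 (standard error 0.63) lay at 0.91 without WT 2 and -0.76 without *Sirt6*-/- 1. *Acvr2a*, a type II receptor of activins, showed the same order of libraries, with 292 and 910 counts in WT against 689 and 314 counts under the *Sirt6*-/- label. *Tgfbr3*, the co-receptor betaglycan, stood at 9.48 and 11.9 TPM in WT against 17.7 and 10.3 TPM under the *Sirt6*-/- label (log2 fold change 0.40, standard error 0.35), and at -0.04 without *Sirt6*-/- 1.

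The BMP receptors were low. *Bmpr1a* stood at 5.25 ± 3.40 TPM (SD, n = 2) in WT and 4.61 ± 0.829 TPM (SD, n = 2) in the libraries labelled *Sirt6*-/-. *Bmpr1b* had 164 and 276 counts in WT against 117 and 92 counts under the *Sirt6*-/- label (log2 fold change -1.02, standard error 0.70). *Bmpr2*, the type II receptor, had 196 and 165 counts against 448 and 213 counts (log2 fold change 0.94, standard error 0.60). Neither passed the test, although the groups did not overlap. *Acvr1b*, the type I receptor of activin, had 294 and 431 counts in WT against 908 and 479 counts under the *Sirt6*-/- label (log2 fold change 0.999, standard error 0.49), and passed the unadjusted threshold only without *Sirt6*-/- 2. *Acvr1*, a type I receptor used by BMPs, overlapped between the groups (log2 fold change 0.71, standard error 0.48). *Acvr2b* had 71 and 58 counts in WT, 0 in *Sirt6*-/- 1 and 12 in *Sirt6*-/- 2, with a log2 fold change of -3.38 (standard error 2.04). It was lower at an unadjusted p of 0.05 with both limma fits and without *Sirt6*-/- 2.

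Among the SMADs, the levels were dominated by *Smad1* and *Smad4*, and *Smad3* was the member that differed. *Smad3* lies on chromosome 9 from 63646767 to 63757994 on the minus strand and transduces TGF-β and activin signals. It had 1529 and 1503 counts in WT against 3051 and 2126 counts under the *Sirt6*-/- label. The WT libraries were alike, at 23.5 ± 0.183 CPM (SD, n = 2), and both others lay above them but farther apart, at 41.8 ± 12.3 CPM (SD, n = 2). On the log2 scale the difference was 0.83 (standard error 0.30). EdgeR's quasi-likelihood test gave it an unadjusted p = 0.0375 and an adjusted p = 0.552. DESeq2 gave an adjusted p = 0.274. The unadjusted threshold was passed in 5 of 12 alternatives, and of the fits with a library left out only without *Sirt6*-/- 2 (1.09). Without WT 1, WT 2 and *Sirt6*-/- 1 the value was 0.80, 0.84 and 0.50.

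*Smad2*, the partner of *Smad3* in this branch, had 3389 and 3119 counts in WT against 3426 and 3645 counts under the *Sirt6*-/- label (log2 fold change 0.17, standard error 0.21). The ratio of *Smad3* to *Smad2* in TPM was 0.776 and 0.828 in WT and 1.53 and 1.003 under the *Sirt6*-/- label. In the BMP branch, *Smad1* stood at 88.3 and 119 TPM in WT against 91.5 and 109 TPM under the *Sirt6*-/- label, so the groups overlapped (log2 fold change -0.03, standard error 0.22). *Smad5* stood at 9.91 and 7.25 TPM in WT against 16.2 and 9.64 TPM under the *Sirt6*-/- label (log2 fold change 0.58, standard error 0.36). *Smad9* had between 0 and 155 counts, with WT 2 at 0. *Smad4*, the common partner, had 6253 and 6337 counts in WT against 4453 and 8688 counts under the *Sirt6*-/- label, so the libraries labelled *Sirt6*-/- lay on either side of WT.

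The inhibitory SMADs and the ubiquitin ligases that remove SMADs and receptors did not pass the test. *Smad7* had 555 and 501 counts in WT against 439 and 454 counts under the *Sirt6*-/- label (log2 fold change -0.19, standard error 0.35). *Smad6*, a feedback inhibitor of BMP signals, had 73 and 33 counts in WT against 72 and 124 counts under the *Sirt6*-/- label (log2 fold change 0.93, standard error 1.012). *Smurf1* stood at 10.7 and 11.8 TPM in WT against 7.80 and 13.1 TPM under the *Sirt6*-/- label. *Smurf2* stood at 11.3 and 9.40 TPM in WT against 8.46 and 9.57 TPM under the *Sirt6*-/- label. Both ligases overlapped between the groups.

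The ID genes, which encode dominant-negative partners of helix-loop-helix factors and are induced by BMPs through SMAD1 and SMAD5, differed little. *Id3* stood at 462 and 504 TPM in WT against 463 and 447 TPM under the *Sirt6*-/- label. *Id2* stood at 359 and 271 TPM against 253 and 252 TPM. *Id1* stood at 145 and 185 TPM against 141 and 147 TPM. In CPM all 3 genes lay lower in both libraries labelled *Sirt6*-/- than in either WT library. In TPM this held for *Id2*, while *Id1* and *Id3* overlapped. The log2 fold changes were -0.19 for *Id1*, -0.32 for *Id2* and -0.08 for *Id3* (standard errors 0.22, 0.21 and 0.16), and none passed an unadjusted p of 0.05. Their direction was the same under 4 scalings of the counts, as it was for all 41 members tested. The summed level of the 3 genes was 963 ± 3.98 TPM (SD, n = 2) in WT and 851 ± 8.21 TPM (SD, n = 2) in the others.

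**Figure D4:**
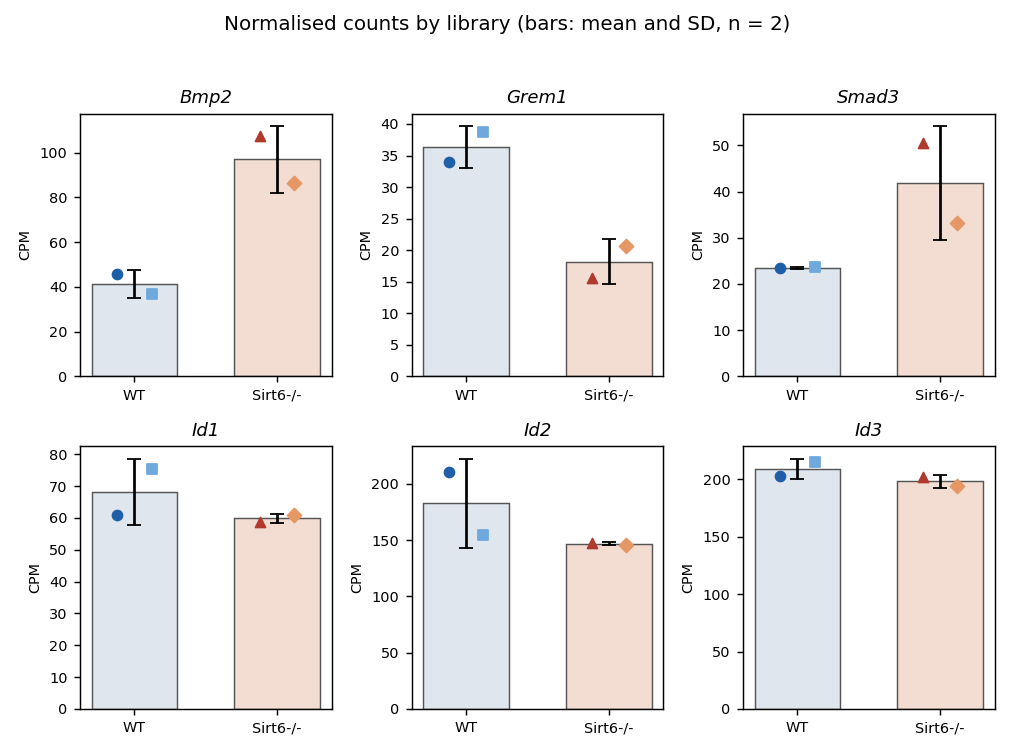
Normalised counts (y axis, CPM) of the 3 members called and the 3 *Id* genes in WT and in libraries labelled *Sirt6*-/- (bars for the mean with SD, n = 2, symbols for libraries). *Bmp2* goes from 41.4 to 97.0 CPM, *Grem1* from 36.3 to 18.2 CPM and *Smad3* from 23.5 to 41.8 CPM, while *Id3* lies between 194 and 215 CPM in the 4 libraries.

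A further list of 95 genes of the pathway covers other ligands, receptors, antagonists, latency and activation factors, SMAD regulators and targets, and 89 of them were tested. At an unadjusted p of 0.05, 5 were higher and 2 lower (7.87%, again near 8.58% of all genes), and 0 passed an adjusted p of 0.05 with edgeR or DESeq2. Its median log2 fold change was -0.0052. The groups did not overlap for 27 of the 89 genes (30.3%, against 41.9% of all genes).

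Of the 5 higher genes, 3 came from the class listed as latency and activation factors. They were 27.3% of the 11 genes tested in it, against 5.27% of all genes called higher. The class was not tested as a set, and over the whole list the share called was 7.87%. *Itgb8* encodes the β8 integrin chain, which pairs with the αv chain encoded by *Itgav* to activate latent TGF-β. *Itgb8* stood at 24.7 and 38.5 CPM in WT against 84.8 and 57.8 CPM under the *Sirt6*-/- label, with a log2 fold change of 1.17 (standard error 0.34). *Itgav* stood at 38.6 and 41.2 CPM in WT against 145 and 55.5 CPM under the *Sirt6*-/- label. Its log2 fold change of 1.33 (standard error 0.47) rested on *Sirt6*-/- 1 and was 0.48 without it. *Ltbp2*, a matrix protein related to *Ltbp1*, stood at 44.8 and 60.9 CPM against 90.3 and 93.1 CPM (log2 fold change 0.79, standard error 0.24), in the opposite direction to *Ltbp1*. Of the 11 latency and activation genes tested, 6 lay higher without overlap (54.5%, against 21.6% of all genes). Without overlap, 0 lay lower (against 20.3% of all genes). Their log2 fold changes were positive in 8 and negative in 3, with a median of 0.49. *Ltbp1*, which is counted among the members and not in these 11, lay lower without overlap.

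*Foxh1*, a partner of SMAD2 and SMAD3 on DNA, stood at 16.5 and 17.5 CPM in WT against 27.6 and 37.7 CPM under the *Sirt6*-/- label (log2 fold change 0.94, standard error 0.29). *Tgfbi*, a gene named for its induction by TGF-β, was lower, at 55.5 and 47.2 CPM against 32.2 and 35.3 CPM (log2 fold change -0.61, standard error 0.24). *Stub1*, a ubiquitin ligase that can act on SMADs, stood at 216 and 197 CPM against 145 and 154 CPM (log2 fold change -0.46, standard error 0.17). These 6 genes had no overlap between the groups, and each lost the unadjusted threshold in at least 2 of the 4 fits with a library left out. Their unadjusted p ran from 0.0159 to 0.0489 and their adjusted p from 0.541 to 0.579 in edgeR. Over the 17 targets tested outside the members, the median log2 fold change was 0.03.

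**Figure D5:**
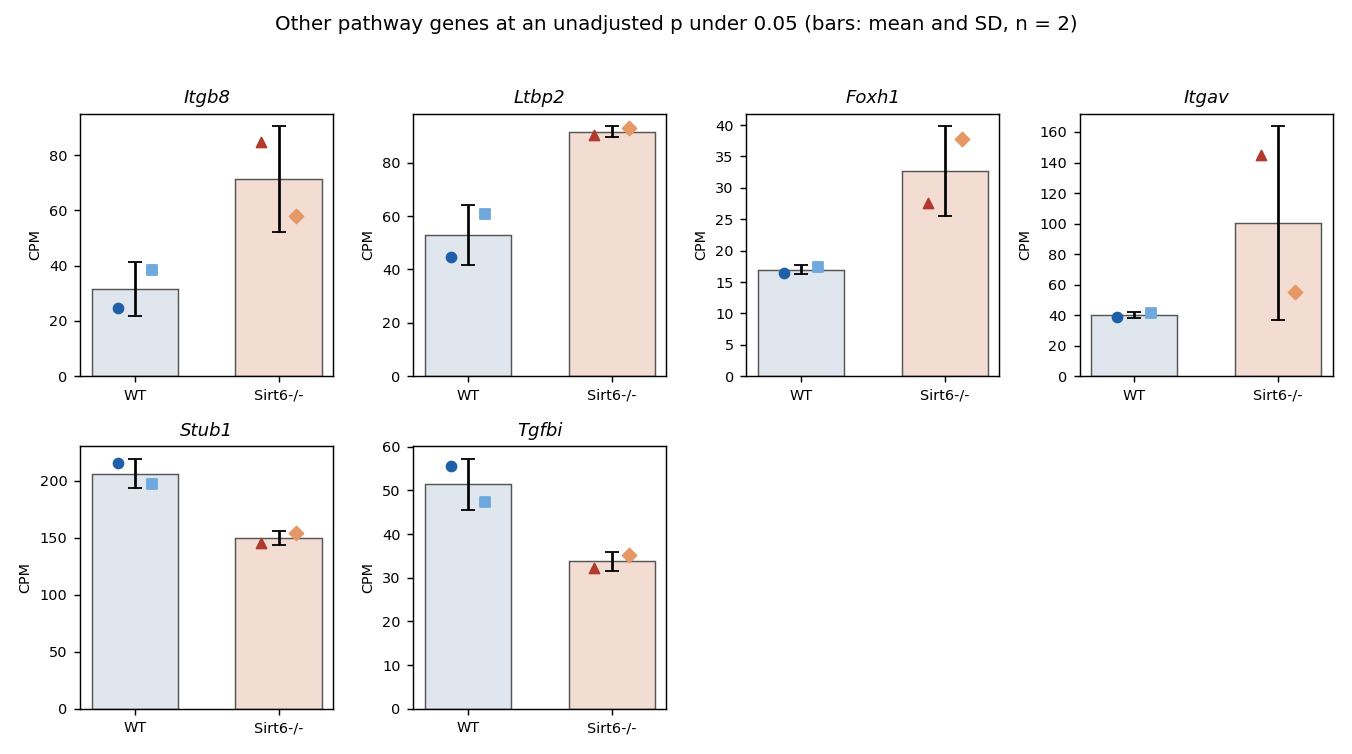
Normalised counts (y axis, CPM) of 6 other pathway genes at an unadjusted p under 0.05 in WT and in libraries labelled *Sirt6*-/- (bars for the mean with SD, n = 2, symbols for libraries). *Itgb8*, *Ltbp2*, *Foxh1* and *Itgav* are higher and *Stub1* and *Tgfbi* lower, and *Itgav* shows the widest spread, from 55.5 to 145 CPM between replicates.

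A few listed genes were at 0 in both libraries of a group, and none of these passed the filter on low counts. The share of all genes with this pattern was not counted. *Msx2*, a target of BMPs, had counts of 9 and 8 in WT but 0 in both others. Its WT mean was 2.73-fold a floor of 3 counts in each of the others, a value that leaves out counting error in WT. *Gdf2*, *Gdf7* and *Cer1* had 0 counts in both WT libraries and 132, 10 and 31 counts in a single library labelled *Sirt6*-/-. *Bmp10* had 0 counts in all 4 libraries.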

How the data were processed

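RNA-seq covered sorted mTECs in 2 WT libraries and 2 with the *Sirt6*-/- label. Per the study's methods and the submitters' processing notes, reads were trimmed with Trim Galore, aligned to mm10 with HISAT2 2.1.0 and quantified with StringTie 1.3.3. The gene annotation and the strand setting are not given in the sources used here. The authors deposited whole-number counts per gene, without normalization, and a table of StringTie's TPM signal for each library, whose 1 line without a gene, a column total, was left out.

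Groups came from the sample titles. Counts were tested with edgeR 4.0.16 in R 4.3.3 (TMM, filterByExpr with a minimum count of 10 and total of 15, glmQLFit and glmQLFTest, two-sided), with Benjamini-Hochberg adjustment over the 18547 genes that passed. Standard errors are the estimate divided by the square root of F. A count of 0 was taken to allow 3 counts. With 2 samples a group, p-values and standard errors rest on the spread between these samples, with variance estimates that draw on all genes. Floors for a count of 0 cover counting error only. The procedure was tested on simulated data. The alternatives were DESeq2 1.42.0, upper quartile normalization, library size alone, no filter, TPM over 0.1 in all libraries, the replicate number as a block, limma 3.58.1 on log2(TPM + 1) and log2(TPM + 0.1), and each library left out.

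Members and lists were chosen with earlier results of these data known. The text gives in full the members at an unadjusted p of 0.05 and the most abundant member of each role, the other members by their counts or levels, up to 8 other pathway genes with the smallest p and those at 0 in both libraries of a group. Of the further list, 5 genes were found under an older symbol, and 1 gene is counted but not reported here. Gene positions and exon overlaps come from GENCODE M21 on GRCm38. No 2 libraries agreed within sampling noise (chi-square per gene from 161 to 286).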

Additional observations from a re-analysis of the deposited data

How the results depend on the processing

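The number of members higher at an unadjusted p of 0.05 went from 2 to 1 with library size alone, with the replicate block and with limma at either pseudocount, and *Smad3* was the member lost. The number lower went from 1 to 3 with DESeq2, 2 with library size alone, 2 with genes over 0.1 TPM in all libraries and 4 with either limma fit. With a library left out, 1 to 3 members were higher and 0 to 3 lower. These fits leave a group with a single library, assumed to vary like the others. DESeq2 gave 1 member an adjusted p under 0.05, and every other fit gave 0. The median log2 fold change of the members, -0.10, was -0.17 with upper quartile normalization, -0.19 with library size alone, -0.0432 with the replicate block, -0.04796 and -0.05248 with limma at a pseudocount of 1 and 0.1, and -0.18 to -0.02578 with a library left out. Upper quartile normalization and library size alone also moved the median of all genes, to -0.09 in both, and the share of calls that were higher from 61.4% to 48.4% and 46.2%. That share was 50.9% and 51.8% with limma and 48.1% without *Sirt6*-/- 2. Without *Sirt6*-/- 1, 735 genes were called in all, against 1592. Of the further pathway genes, 2 to 9 were higher and 0 to 8 lower with a library left out, 1 was lower without the filter and 0 with the replicate block. The log2 fold change of *Sirt6* stayed between 0.19 and 0.54. Directions turned with a library left out for *Inhba* (-0.50 to 0.19), *Tgfbr1* (-0.76 to 0.91), *Tgfbr3* (-0.04465 to 0.73), *Smad1* (-0.24 to 0.17), *Smad4* (-0.42 to 0.48), *Smurf1* (-0.53 to 0.23), *Tgfb3* (-0.35 to 0.23), *Bmp3* (-0.26 to 0.705), *Bmp7* (-0.18 to 1.025), *Bmpr1a* (-0.72 to 0.69), *Acvr2a* (-0.93 to 0.87) and *Smad9* (-0.83 to 9.55). The cause of these shifts was not tested. The replicate numbers name samples without a stated pairing, and deviations from the group means correlated at -0.0544 over genes between samples of the same number. At a biological coefficient of variation of 0.557 with 2 libraries a group, standard errors of the members ran from 0.16 for *Id3* to 2.19 for *Smad9*.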
